A study of Mus musculus with 18 samples.

Results

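Interaction frequencies across the HoxD locus were compared between P2, a mesenchymal cell line from the posterior distal forelimb bud, and A2, the corresponding line from the anterior distal forelimb bud. The libraries were chosen by their labels as those of the posterior line (2 libraries) and of the anterior line (2 libraries). They are 4 of the 18 libraries of the series, and the 14 others were made from embryonic stem cell lines, some of them differentiated, with a smaller set of primers. The measurement is chromosome conformation capture carbon copy (5C), which joins EcoRI ends that lay close together in the fixed nucleus and then reads every possible junction with a forward primer on one fragment and a reverse primer on the other. The limb design holds 100 EcoRI fragments with one kind of primer and 103 with the other on chr2:73751054-74907778 (mm9), and only fragments of different kinds can be paired, which gives 10300 fragment pairs. The kinds were read from which pairs hold a value, and their sizes differ slightly from the numbers of primers in the methods. Of these, 10068 have midpoints at least 10 kb apart and entered the comparisons.

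Both lines came from Immortomouse embryos at E10.5, which carry a temperature-sensitive large T antigen that keeps cells dividing, and both were grown at 33°C with 20 ng/ml interferon γ and fixed with 1% formaldehyde for 10 min. Neither line received a further treatment, so they differ by position in the bud and by being separate lines, and these cannot be told apart with 1 line per position. The files hold no expression values, so the identity of the lines could not be checked against marker genes. The first library of a line is the one whose title lacks the word replicate, and the second is the one whose title has it. The paper calls a further data set of these lines a biological replicate, but the labels do not say that the libraries came from separate cultures. The p-values therefore measure the spread between these libraries, which may be technical in part.

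The Hoxd genes lie in the order in which they are switched on along the body axis, from Hoxd1 at one end of the cluster to Hoxd13 at the other. In the late phase of limb development Hoxd13 and its neighbours at the 5′ end are transcribed mainly in the posterior distal bud, where they are needed for digits, under enhancers on the side of the gene Lnp: Prox, between Lnp and Evx2, and, beyond Lnp, the global control region (GCR) and the regulatory islands of a large gene desert. The 3′ genes, from Hoxd9 to Hoxd1, share more contacts with the opposite flank, which holds Mtx2 and another desert and carries enhancers used in the proximal limb. The direction of the locus is given below as the Lnp side and the Mtx2 side of the cluster.

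The fragments on which the comparison turns were those of Hoxd13 (mHoxD_70, chr2:74505530-74511688, which holds the whole gene), Hoxd11 (mHoxD_75, chr2:74516252-74524317), Hoxd9 (mHoxD_78, chr2:74537329-74538484, which overlaps the 3′ part of the gene), 2 of the 7 fragments of the GCR window (mHoxD_7, chr2:74270394-74270699, and mHoxD_9, chr2:74271886-74272735) and both fragments of the island III window (hoxd_72, chr2:74068463-74084842, and hoxd_73, chr2:74084843-74092098). A 5C junction is counted only where a fragment ends in an EcoRI site, so the ends facing Mtx2 are shown as 33 bases of the plus strand of NCBIM37 (mm9), 5′ to 3′, with the EcoRI site in capitals. All fragments end in such a site on that side. The first 30 bases of the island III sequences are the primer sites named in the headers of the second libraries, and the headers give no primer site for the other fragments.
Hoxd13, mHoxD_70: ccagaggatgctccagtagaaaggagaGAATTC
Hoxd11, mHoxD_75: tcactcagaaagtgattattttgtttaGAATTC
Hoxd9, mHoxD_78: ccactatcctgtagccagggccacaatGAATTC
GCR, mHoxD_7: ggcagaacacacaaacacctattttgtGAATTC
GCR, mHoxD_9: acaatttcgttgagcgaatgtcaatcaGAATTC
island III, hoxd_72: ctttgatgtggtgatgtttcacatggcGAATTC
island III, hoxd_73: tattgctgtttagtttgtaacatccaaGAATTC

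The deposited values are the reads of a pair per 1000 reads of the sequencing run, called interaction frequency here. Every nonzero value was a whole multiple of the smallest one of its library within a tolerance of 0.05, and taking that value as 1 read gives 478818 and 2096682 reads for the P2 libraries and 1081237 and 718996 for the A2 libraries. The first and second libraries also differed in other ways. Pairs under 10 kb apart took 138 and 261 of 1000 reads in P2, against 166 and 278 in A2, and 1.97% and 13.8% of the longer pairs held no read in P2, against 4.20% and 23.4% in A2. The 2360 longer pairs with no read in the second A2 library had a median of 31 reads in the first A2 library. Over the 8157 pairs with a mean frequency above 0.02, Pearson's r of the log2 values was 0.664 between the P2 libraries and 0.523 between the A2 libraries, and between the lines it was 0.742 for the first libraries, 0.516 for the second, 0.547 for the first P2 with the second A2 library and 0.629 for the second P2 with the first A2 library. The highest value was thus between the lines, and the second P2 library was closest to its own line. These are correlations across pairs that share fragments.

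Frequency fell with distance in a closely similar way in both lines. The slope of log2 mean frequency on log2 distance from 10 kb was −0.49 and −0.54 in P2, against −0.48 and −0.50 in A2. The difference was −0.03, and an exact permutation test over the 4 libraries gave p = 0.667, where 0.333 is the smallest that this design allows. Pairs 160 to 320 kb apart had means of 0.0933 and 0.0777 in P2, against 0.0874 and 0.0731 in A2, which is 6.64% higher in P2 within the first libraries and 6.26% within the second. Beyond 640 kb the means were 0.0393 and 0.0341 in P2, against 0.0419 and 0.0378 in A2, or −6.11% and −9.94%. In each of these distance classes the second library of a line lay below its first by more than the lines differed within the first or within the second libraries.

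**Figure D1:**
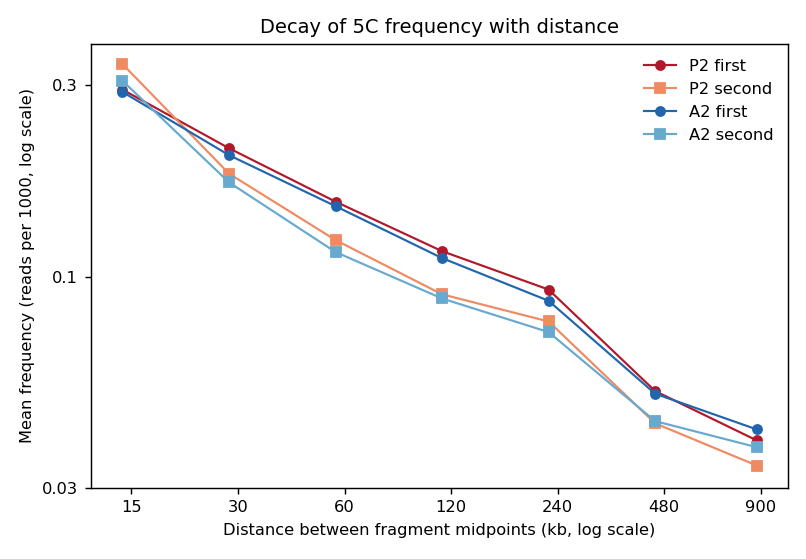
Mean interaction frequency (reads per 1000, log axis) of all pairs in 7 distance classes from 10 kb (log axis, placed at the geometric centre of the class) for the P2 libraries (reds) and the A2 libraries (blues). Circles are first and squares second libraries, and from 20 to 640 kb both second libraries run below both first libraries.

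At the level of single contacts the lines were not separated by the test. limma, a linear model with a spread shared across features, was fitted to log2(frequency + 0.02), and an adjusted p (Benjamini-Hochberg over all features of a family) below 0.05 was required. It called 0 of 8157 fragment pairs (0%), with 265 (3.25%) at an unadjusted p below 0.05, of which 136 (1.67%) were higher and 129 (1.58%) lower in P2. It also called 0 of 1146 pairs of 24-kb bins (0%), with 22 (1.92%) at an unadjusted p below 0.05, of which 9 (0.785%) were higher and 13 (1.13%) lower in P2. The lines did not overlap in 123 bin pairs higher in P2 (10.7%) and 159 lower (13.9%). Where 1 library is left out, its line has a single library, which is assumed to vary like the other line. Without the first A2 library, which leaves the A2 library with the most pairs at 0, limma called 17 fragment pairs (16 higher and 1 lower in P2) and 10 bin pairs (8 higher and 2 lower), and without the first P2 library 0 and 3. Among the fragment pairs both P2 libraries lay above both A2 libraries in 1238 (15.2%) and below them in 1282 (15.7%). The change within the first libraries had the same sign as the change within the second in 4089 of the 8157 pairs (50.1%).

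The fragment pairs with the largest differences without overlap each had a fragment in the Lnp-side deserts. The pair with the largest positive one, hoxd_18 with mHoxD_96 just beyond Hoxd1, had 0.0627 and 0.109 in P2, against 0 and 0.00278 in A2 (log2 2.27, limma adjusted p = 0.999). It was followed by hoxd_43 with mHoxD_93 between Hoxd3 and Hoxd1, at 0.121 and 0.137 in P2 against 0.0287 and 0 in A2. The third, hoxd_59 with hoxd_70 in the desert, had 0.188 and 0.191 in P2 against 0.0879 and 0 in A2. The largest negative ones were hoxd_7 with hoxd_120, at 0.00418 and 0 in P2 against 0.106 and 0.0960 in A2, hoxd_5 with mHoxD_124 in Mtx2, at 0.0125 and 0 against 0.0758 and 0.143, and hoxd_5 with hoxd_21, at 0.0459 and 0.00763 against 0.0851 and 0.364. None passed the threshold.

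Among bin pairs, the contact within the bin that holds Hoxd11 and Hoxd9, which rests on the single pair of mHoxD_75 and mHoxD_78, measured 1.47 and 2.61 in P2, against 0.992 and 0.797 in A2 (log2 1.12, limma adjusted p = 1.00). The bin of the island III fragment hoxd_72 and the bin of mHoxD_45, at the end of Lnp nearest the cluster, measured 0.125 and 0.164 in P2, against 0.0758 and 0.0278 in A2 (limma adjusted p = 0.837). The largest negative difference lay within the bin at chr2:74454010-74470655, between Lnp and Evx2 in the Prox window, at 0.0397 and 0.0162 in P2, against 0.0990 and 0.154 in A2 (log2 −1.63, limma adjusted p = 0.366), again from 1 fragment pair. The other bins named by size of difference joined the Lnp-side deserts with bins at or beyond the end of Mtx2 through 1 or 2 fragment pairs. The bin of hoxd_65 and hoxd_70 with the last bin of the locus, at chr2:74905152-74907778, had 0.00835 and 0.00978 in P2, against 0.0698 and 0.0452 in A2. The bin of hoxd_35 had 0.0439 and 0.0174 in P2, against 0.0925 and 0.0897 in A2, with the bin at the end of Mtx2, and 0.0334 and 0.0796 in P2, against 0.0139 and 0 in A2, with the last bin of the locus.

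Taken as anchors, that is by the mean frequency of a fragment with all its partners, the fragments of the Hoxd cluster held the largest differences in favour of P2. The Hoxd9 fragment mHoxD_78 led all anchors with 0.139 and 0.195 in P2, against 0.105 and 0.0813 in A2. Both P2 values lay above both A2 values, by a log2 change of 0.35 within the first and 1.08 within the second libraries. The fit gave a log2 change of 0.72 (95% interval 0.28 to 1.15), which limma did not call (adjusted p = 0.243). All anchors named here had the same standard error, 0.219, so the interval is not the spread of this anchor alone. The Hoxd9 fragment was the single anchor at an unadjusted p below 0.05 (0.493%), and limma called 0 anchors (0%).

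The next anchors without overlap were mHoxD_83, in an intron of Hoxd3, a gene active early and anteriorly in the body axis, and mHoxD_69, the fragment between Evx2 and Hoxd13. mHoxD_83 had 0.0887 and 0.112 in P2, against 0.0781 and 0.0648 in A2. mHoxD_69 had 0.226 and 0.191 in P2, against 0.185 and 0.127 in A2 (log2 0.39). The highest log2 change among anchors of the desert beyond Mtx2 was also 0.39, so rises of this size were not confined to the cluster. The Hoxd13 fragment itself had 0.209 and 0.278 in P2, against 0.183 and 0.193 in A2 (log2 0.33, limma adjusted p = 0.999), and the log2 change was 0.13 without the second P2 library and 0.52 without the first. On the negative side stood mHoxD_120, in an intron of Mtx2, a gene for a mitochondrial import protein, with 0.0692 and 0.0884 in P2 against 0.110 and 0.108 in A2. It was followed by mHoxD_167 in the desert beyond Mtx2, with 0.0333 and 0.0335 in P2 against 0.0506 and 0.0484 in A2, and by hoxd_21 in island I, with 0.0328 and 0.0349 in P2 against 0.0465 and 0.0517 in A2.

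Over the 22 anchors from Evx2 to Hoxd1, both P2 libraries lay above both A2 libraries in 8 and below them in 1. Over all anchors these counts were 16 (7.88%) and 18 (8.87%). The 6 anchors from mHoxD_69 to Hoxd11 had a median log2 change of 0.22, at 0.13 within the first and 0.33 within the second libraries, and the median of all anchors was 0.00. In the 14 anchors from Hoxd9 to Hoxd1 the median was −0.03 within the first libraries and 0.29 within the second.

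**Figure D2:**
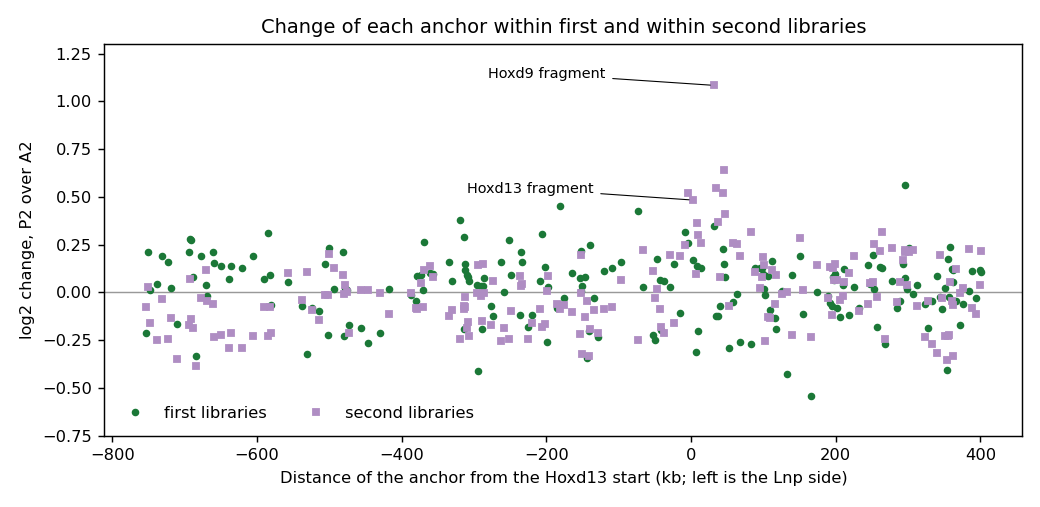
log2 change of P2 over A2 in the mean frequency of each anchor, against the distance of the anchor from the Hoxd13 start (kb), within the first libraries (circles) and within the second (squares). The Hoxd9 fragment is the highest square, at 1.08. The squares have medians of 0.33 from mHoxD_69 to Hoxd11 and 0.29 from Hoxd9 to Hoxd1, and the circles 0.13 and −0.03. Over all anchors the medians are −0.02 for squares and 0.04 for circles.

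The locus was then divided into 8 consecutive regions, and the mean frequency was compared for the 36 region pairs. Contacts of the region from mHoxD_69 to Hoxd11, called 5′ Hoxd, were higher in P2 with every region on the Lnp side without overlap of the libraries, although limma called none of these, and the libraries overlapped for the regions on the Mtx2 side. With the GCR region they were 0.138 and 0.114 in P2, against 0.112 and 0.0930 in A2. With the region from Lnp to Evx2 they were 0.197 and 0.212 in P2, against 0.180 and 0.164 in A2. Neither the first nor the second libraries departed from this direction.

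Further out, 5′ Hoxd contacts with the desert of islands III to V were 0.0788 and 0.0875 in P2, against 0.0733 and 0.0600 in A2. With the far desert that holds islands I and II they were 0.118 and 0.133 in P2, against 0.101 and 0.103 in A2. The log2 changes of these 4 region pairs were 0.23 to 0.26, and limma adjusted p was 0.897 to 0.981. On the Mtx2 side the log2 changes were −0.04 with the Mtx2 interval and 0.02 with the desert beyond it, and the libraries overlapped. When each fragment was scaled to the same total over its partners in every library, the changes with the Lnp-side regions were 0.07 to 0.15 and those with the Mtx2-side regions both −0.15.

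Within the cluster, 5′ Hoxd contacts with the region from Hoxd9 to Hoxd1 were 0.359 and 0.525 in P2, against 0.333 and 0.292 in A2 (log2 0.45, limma adjusted p = 0.193), and the log2 change was 0.10 within the first and 0.81 within the second libraries. Contacts inside 5′ Hoxd passed the threshold, at 1.41 and 1.51 in P2 against 0.985 and 0.748 in A2. The log2 change was 0.75 (95% interval 0.41 to 1.10, limma adjusted p = 0.00154), with 0.51 within the first and 1.00 within the second libraries. The fit gave all 36 region pairs the same standard error, 0.173. The interval and p-value thus reflect the spread of the whole family and not that of this contact, which averages 2 fragment pairs. This was the single region pair called, 1 of 36 (2.78%), with 3 (8.33%) at an unadjusted p below 0.05. Without the first P2 library limma called 3, among them 5′ Hoxd with the region from Hoxd9 to Hoxd1 (log2 0.72, limma adjusted p = 0.00890), with the spread taken from A2 and the other features alone.

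The call rests on 2 fragment pairs that share mHoxD_69. Its contact with mHoxD_75, the Hoxd11 fragment, was 1.90 and 2.10 in P2, against 1.21 and 0.974 in A2. Its contact with mHoxD_73, in Hoxd12, was 0.923 and 0.927 in P2, against 0.758 and 0.523 in A2. Without the second A2 library the log2 change was 0.56 (limma adjusted p = 0.796). With fragments scaled to the same total it was 0.09 (limma adjusted p = 0.887), and with pairs under 10 kb included it was 0.29 (limma adjusted p = 0.969).

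Of the 36 region pairs, P2 lay above A2 without overlap in 7 (19.4%) and below in 1 (2.78%), and 6 of the 7 involved 5′ Hoxd. The seventh joined the region from Hoxd9 to Hoxd1 with the desert beyond Mtx2, at 0.233 and 0.218 in P2 against 0.214 and 0.171 in A2. The pair below was the far Lnp-side desert with the Mtx2 interval, at 0.0268 and 0.0233 in P2 against 0.0298 and 0.0290 in A2 (limma adjusted p = 0.989).

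At the level of fragment pairs, P2 lay above A2 without overlap in 36 of 117 pairs (30.8%) between 5′ Hoxd and the far desert and in 22 of 73 (30.1%) between 5′ Hoxd and islands III to V. The shares were 22.9% with the region from Lnp to Evx2 and 15.4% with the GCR region, and 15.2% over all pairs tested. On the Mtx2 side the shares were 9.86% with the Mtx2 interval and 16.0% with the desert beyond it, so the shares did not divide the sides, with that desert slightly above the GCR region. Both P2 libraries lay below both A2 libraries in 14.1% and 18.4% of the pairs with these Mtx2-side regions, and in 0.855% to 11.5% of the pairs with the Lnp-side regions. The pairs of a region share fragments and are not replicates.

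The Hoxd13 fragment was examined on its own. Its mean frequency with 9 partners in the GCR region was 0.243 and 0.215 in P2, against 0.151 and 0.124 in A2. With 12 partners from Lnp to Evx2 it was 0.359 and 0.467 in P2, against 0.296 and 0.328 in A2, and with 8 partners from Hoxd9 to Hoxd1 it was 0.487 and 0.831 in P2, against 0.412 and 0.414 in A2. In these 3 regions the means of the lines did not overlap. Single pairs lay above A2 without overlap in 2 of the 9, 2 of the 12 and 4 of the 8, and below in 0. Over all fragment pairs the shares above and below were 15.2% and 15.7%.

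In the Lnp-side deserts Hoxd13 had a mean of 0.172 and 0.240 over 20 partners in the far desert in P2, against 0.151 and 0.176 in A2, where the lines overlapped. P2 lay above A2 without overlap in 8 of these pairs and below in none, where the shares over all fragment pairs were 15.2% and 15.7%. Over 13 partners in the desert of islands III to V the means were 0.117 and 0.175 in P2, against 0.116 and 0.102 in A2. These means did not overlap, and 4 pairs lay above and 1 below.

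Towards the Mtx2 interval Hoxd13 had 0.117 and 0.150 in P2, against 0.145 and 0.131 in A2, and the lines overlapped. They also overlapped for the desert beyond Mtx2, at 0.153 and 0.172 in P2 against 0.144 and 0.175 in A2. Single pairs lay above and below without overlap in 2 and 2 of 13 with the Mtx2 interval, and in 4 and 3 of 22 with this desert. Over all 97 partners P2 lay above A2 without overlap in 26 and below in 6, beside 15.2% and 15.7% over all fragment pairs.

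**Figure D3:**
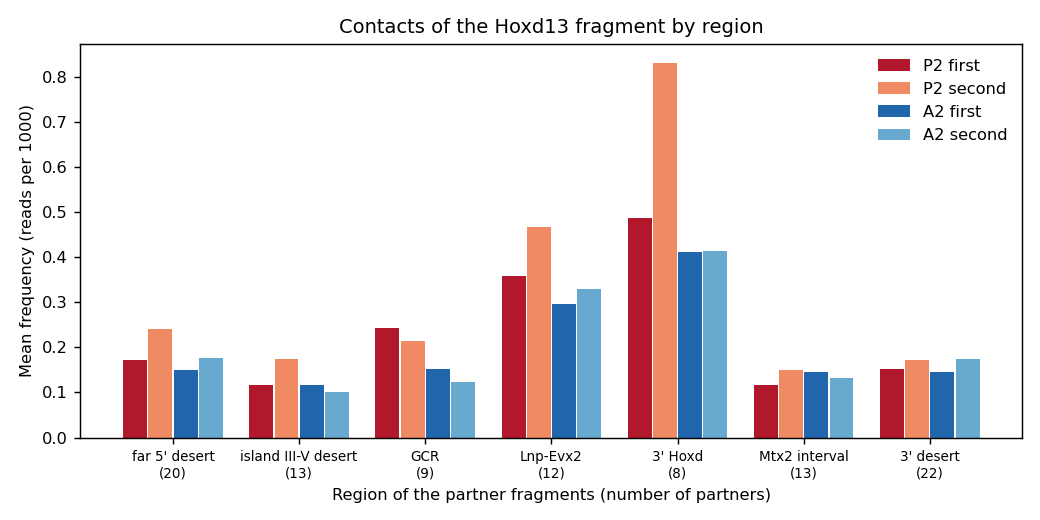
Mean interaction frequency (reads per 1000) of the Hoxd13 fragment with its partners in each of 7 regions, ordered from the Lnp-side desert to the Mtx2-side desert, with 1 bar per library (P2 reds, A2 blues). In the GCR region the P2 bars stand at 0.243 and 0.215 and the A2 bars at 0.151 and 0.124, and in the Mtx2-side regions the bars of the lines overlap.

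The 10 strongest pairs at Hoxd13, ranked by the mean of the 4 libraries, were above A2 without overlap in P2 in 6 cases and below in none, beside 26 and 6 of all 97 partners and 15.2% and 15.7% over all fragment pairs. The ranking includes the P2 values, so pairs high in P2 enter it more easily. The count is therefore not independent of the comparison. With the Hoxd9 fragment Hoxd13 had 0.957 and 1.44 in P2, against 0.541 and 0.622 in A2. With mHoxD_80, at the start of Hoxd8, it had 0.522 and 1.07 in P2, against 0.313 and 0.345 in A2. With mHoxD_84, in Hoxd3, it had 0.654 and 1.25 in P2, against 0.590 and 0.484 in A2.

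On the Lnp side, Hoxd13 with mHoxD_27, at the end of the GCR region nearest Lnp, had 0.556 and 0.739 in P2, against 0.299 and 0.291 in A2. With mHoxD_48, between Lnp and Evx2, it had 0.641 and 0.580 in P2, against 0.309 and 0.396 in A2, and with mHoxD_65, in the Prox window, 0.758 and 0.607 against 0.497 and 0.456. The pair with the Evx2 fragment, 0.808 and 1.47 in P2 against 0.761 and 0.929 in A2, overlapped between the lines, as did the strongest, with mHoxD_82 at the annotated start of Hoxd3, at 0.771 and 1.56 in P2 against 0.771 and 0.929 in A2.

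The study set out to compare how Hoxd13, the GCR and island III lie relative to each other in posterior and anterior cells, and these contacts were read from windows of about the size of its probes. Hoxd13 with the GCR, taken between 7 GCR fragments and a window of 8 fragments that runs from the Prox side of Evx2 to Hoxd12, measured 0.127 and 0.103 in P2, against 0.0938 and 0.0992 in A2. The lines did not overlap, with a log2 change of 0.21 (95% interval −0.28 to 0.70, limma adjusted p = 0.894), of which 0.37 within the first and 0.05 within the second libraries. Hoxd13 with island III measured 0.111 and 0.157 in P2, against 0.114 and 0.111 in A2 (log2 0.20, limma adjusted p = 0.894), and the lines overlapped. Without the second P2 library this difference was −0.02.

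The GCR with island III measured 0.111 and 0.113 in P2, against 0.0961 and 0.0874 in A2 (log2 0.24, limma adjusted p = 0.894), without overlap. In that contact P2 was higher within both the first and the second libraries in 3 of 7 fragment pairs. For Hoxd13 with island III this held in 4 of 8 fragment pairs. Over all fragment pairs tested, the changes within the first and second libraries had the same sign, up or down, in 50.1%. That share counts falls as well as rises, so it is not a like share for counts of pairs higher in P2.

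When the Hoxd13 fragment alone was set against the GCR, the frequencies were 0.164 and 0.137 in P2, against 0.101 and 0.0824 in A2. The log2 change was 0.61, and it was 0.61 within the first and 0.62 within the second libraries (limma adjusted p = 0.398). All 4 fragment pairs behind it were higher in P2 within both, beside 50.1% of all fragment pairs with the same sign within both, up or down. They share the Hoxd13 fragment. With mHoxD_7 Hoxd13 had 0.140 and 0.162 in P2, against 0.0758 and 0.0612 in A2, without overlap. With mHoxD_9 it had 0.115 and 0.170 in P2, against 0.0527 and 0.117 in A2, and with mHoxD_4 and mHoxD_14 the lines overlapped too. With all windows moved by 10 kb towards Mtx2, so that the Hoxd11 fragment stood in for Hoxd13, the difference was −0.05.

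The other regulatory elements on the Lnp side were read with the same Hoxd13 window. Island II, in the far desert, measured 0.131 and 0.112 in P2, against 0.102 and 0.0860 in A2. Islands IV and V measured 0.130 and 0.136 in P2, against 0.113 and 0.0926 in A2, and island I measured 0.120 and 0.119 in P2, against 0.106 and 0.103 in A2. The lines did not overlap in these contacts, and limma adjusted p was 0.894 in each. The lack of overlap was not particular to the Lnp side. With Mtx2 the window measured 0.0710 and 0.0722 in P2, against 0.0702 and 0.0676 in A2. With Hoxd1 it measured 0.140 and 0.130 in P2, against 0.128 and 0.125 in A2. The Hoxd13 fragment alone measured 0.182 and 0.241 in P2, against 0.140 and 0.121 in A2, with island II (log2 0.62, limma adjusted p = 0.398). Of the 3 fragment pairs behind this contact, 2 were higher in P2 within both the first and the second libraries. Over all fragment pairs, 50.1% had the same sign within both, which counts falls as well as rises.

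The 3 landmark pairs with the largest differences without overlap involved the Hoxd9 fragment. With the Hoxd13 window it measured 0.467 and 0.679 in P2, against 0.273 and 0.257 in A2 (log2 1.04, 95% interval 0.49 to 1.59, limma adjusted p = 0.203). All 4 fragment pairs of this contact were higher in P2 without overlap, beside 15.2% over all fragment pairs tested. They share mHoxD_78 and are not separate observations. Under the alternatives the log2 change of this contact fell as low as 0.20. That of the Hoxd9 fragment with the fragments of Hoxd4 and Hoxd3, given next, also fell as low as 0.20. The Hoxd9 fragment with the fragments of Hoxd4 and Hoxd3 measured 0.310 and 0.801 in P2, against 0.255 and 0.186 in A2 (log2 1.13, limma adjusted p = 0.398), most of which came from the second libraries (log2 2.00 against 0.27 within the first). With Prox it measured 0.0851 and 0.0565 in P2, against 0.0555 and 0.0174 in A2 (log2 0.76, limma adjusted p = 0.702, and log2 0.25 without the second A2 library), and with Mtx2 it measured 0.135 and 0.149 in P2, against 0.0633 and 0.0946 in A2 (log2 0.73, limma adjusted p = 0.398).

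Across landmarks, 7 of the 8 pairs of the Hoxd9 fragment and 9 of the 11 pairs of the Hoxd13 window lay higher in P2 without overlap, and none lay lower. Over all 94 landmark pairs, 24 (25.5%) lay higher and 8 (8.51%) lower. limma called 0 of the 94 (0%), and 6 (6.38%) had an unadjusted p below 0.05. Without the first P2 library it called 2, both of the Hoxd9 fragment, with the Hoxd13 window and with the fragments of Hoxd4 and Hoxd3, with the spread taken from A2 and the other features alone.

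The 3 largest differences in the other direction without overlap were smaller in size. Island I with Mtx2, a contact between opposite ends of the locus, measured 0.0265 and 0.0243 in P2, against 0.0350 and 0.0397 in A2 (log2 −0.34, limma adjusted p = 0.894). Lnp with Hoxd8 measured 0.0914 and 0.0978 in P2, against 0.110 and 0.136 in A2, and Evx2, a homeobox gene next to Hoxd13, with Hoxd4 and Hoxd3 measured 0.0947 and 0.108 in P2, against 0.111 and 0.133 in A2. The GCR with Hoxd1, the gene farthest from it in the cluster, went the other way. It measured 0.0620 and 0.0736 in P2, against 0.0401 and 0.0255 in A2 (log2 0.74, limma adjusted p = 0.398). Of its 3 fragment pairs, 1 was higher within both the first and the second libraries. The share of all fragment pairs with the same sign within both, 50.1%, counts rises and falls together and is not a like share.

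**Figure D4:**
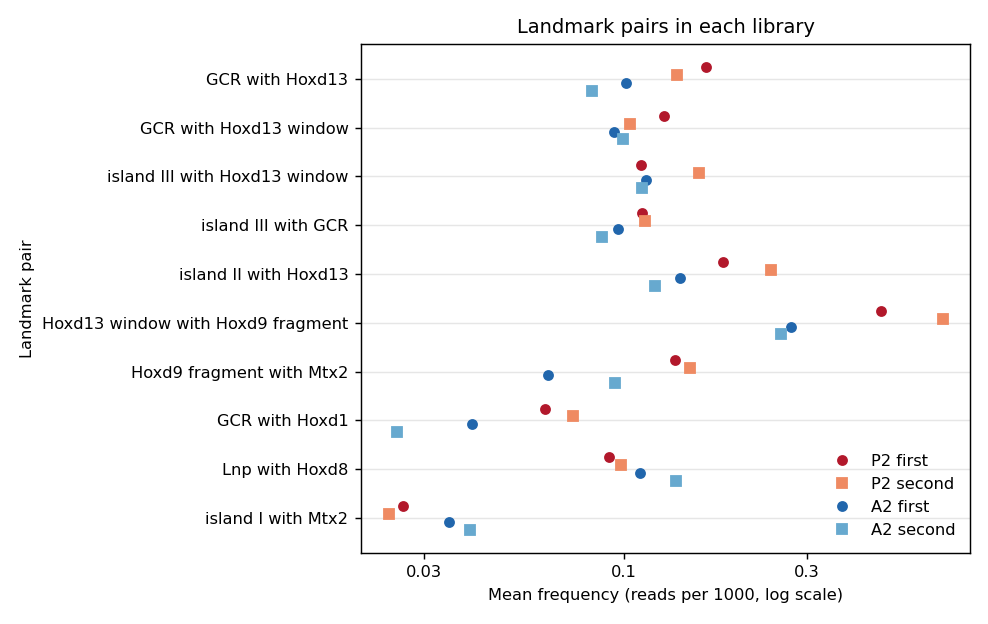
Mean interaction frequency (reads per 1000, log axis) of 10 landmark pairs in each library, with P2 in reds above A2 in blues within each row, circles for first and squares for second libraries. The Hoxd13 window with the Hoxd9 fragment shows the widest gap, with P2 at 0.467 and 0.679 and A2 at 0.273 and 0.257, and the Hoxd13 window with island III shows overlap.

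A ratio within a library does not depend on its scaling, so the preference of each anchor for one side was compared as well. For partners 10 to 300 kb away, the log2 ratio of the Mtx2 side over the Lnp side was tested for 189 anchors, and limma called 0 (0%), with 8 (4.23%) at an unadjusted p below 0.05, of which 5 (2.65%) were higher and 3 (1.59%) lower in P2. Without the first P2 library it called 1. P2 lay higher without overlap in 22 (11.6%) and lower in 25 (13.2%). The fragment with the largest negative difference, mHoxD_80 at the start of Hoxd8, had log2 ratios of 0.12 and 0.10 in P2, against 0.57 and 0.57 in A2, followed by hoxd_61 at −0.41 and −0.81 against −0.24 and −0.07 and hoxd_82 in the islands IV and V window at 0.10 and 0.03 against 0.20 and 0.82. The largest positive ones were hoxd_116 at 0.12 and 0.57 in P2 against 0.07 and −0.52 in A2, mHoxD_175 at 1.10 and 0.82 against 0.59 and 0.29, and mHoxD_33, at the end of Lnp nearest the GCR, at −0.09 and 0.52 against −0.20 and −0.27.

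The ratio was also taken over all partners beyond the cluster, those on the Mtx2 side over those on the Lnp side, and is called lean. As for side preference, 0.02 was added to both means. The readout was chosen with the values in view, so it is described without a test. In all 4 libraries the lean turned from the Lnp side to the Mtx2 side between Hoxd13 and Hoxd9. At Hoxd13 the lean was −0.54 and −0.66 in P2, against −0.24 and −0.19 in A2, further towards the Lnp side in P2. The tested side preference of the same fragment, over partners at 10 to 300 kb, did not show this, with −0.30 and 0.06 in P2, against −0.02 and −0.04 in A2, and that of mHoxD_69 was 0.23 and 0.73 in P2, against 0.19 and 0.36 in A2, towards the Mtx2 side.

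At Hoxd12 (mHoxD_73) the lean was −0.27 and −0.44 in P2, against 0.03 and 0.01 in A2, and at the next Hoxd12 fragment (mHoxD_74) it was −0.17 and −0.29 in P2, against 0.16 and 0.14 in A2. These fragments leaned towards the Lnp side in P2 and not in A2. At Hoxd11 (mHoxD_75) it was 0.18 and 0.26 in P2, against 0.32 and 0.19 in A2, with overlap, and at Hoxd9 (mHoxD_78) it was 1.48 and 1.39 in P2, against 1.27 and 1.37 in A2. The widest gap among the 3′ genes in the second libraries was at mHoxD_89, in Hoxd3, with 1.70 and 1.65 in P2 against 1.44 and 0.92 in A2.

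**Figure D5:**
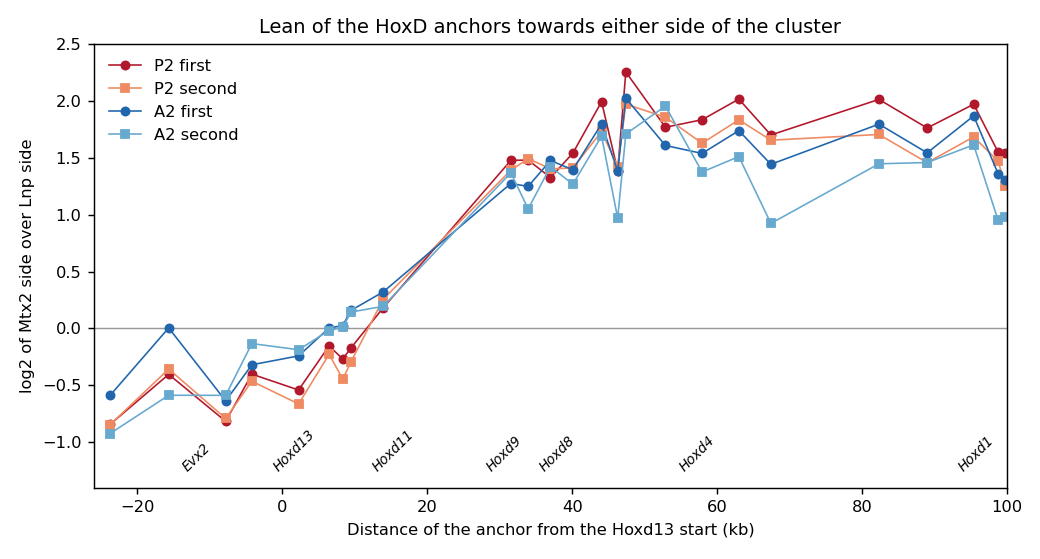
Lean of each anchor from Evx2 to Hoxd1, the log2 ratio of its mean frequency with all fragments on the Mtx2 side of the cluster over that with all fragments on the Lnp side, against distance from the Hoxd13 start (kb). Before the ratio was taken, 0.02 was added to both means. P2 (reds) runs below A2 (blues) at the Hoxd13 and Hoxd12 fragments, and the lines meet at Hoxd11.

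Of the 6 anchors from mHoxD_69 to Hoxd11, 5 leaned further to the Lnp side in P2 without overlap and none further to the Mtx2 side. Of the 14 from Hoxd9 to Hoxd1, 7 leaned further to the Mtx2 side in P2 and 1 further to the Lnp side. That anchor was mHoxD_80, at the start of Hoxd8, at 1.33 and 1.40 in P2 against 1.48 and 1.42 in A2. In the flanks most anchors overlapped between the lines. On the Lnp side of the cluster 39 of 114 anchors leaned further to their own side in P2 and 2 the other way, and on the Mtx2 side 29 of 69 leaned further to their own side and 2 the other way. The median change in lean was −0.18 within the first and −0.02 within the second libraries on the Lnp side, and 0.15 and 0.10 on the Mtx2 side. Over all anchors P2 lay higher in 38 (18.7%) and lower in 47 (23.2%).

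These leans are not separate observations, because anchors on opposite sides share the pairs that join them. Pairs across the cluster at 160 to 640 kb had means of 0.0362 and 0.0280 in P2, against 0.0400 and 0.0315 in A2. They were lower in P2 within the first libraries (log2 −0.14) and within the second (−0.17). Pairs within a flank in the same range had 0.0771 and 0.0563 in P2, against 0.0685 and 0.0602 in A2, and did not differ in one direction. The log2 ratio of pairs within a flank over pairs across the cluster was 1.09 and 1.01 in P2, against 0.78 and 0.94 in A2, so the lines did not overlap, but the difference was 0.31 within the first and 0.07 within the second libraries. Distances were not matched, as 349 of 2145 pairs across and 1211 of 2205 within lay at 160 to 320 kb. In that class the ratio was 0.85 and 0.76 in P2, against 0.57 and 0.73 in A2. At 320 to 640 kb it was 1.04 and 0.96 in P2, against 0.70 and 0.91 in A2.

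Taken in whole, the 5′ Hoxd region had a mean frequency with the Lnp side of 0.128 and 0.135 in P2, against 0.112 and 0.103 in A2, which is 14.1% and 31.1% higher in P2. With the Mtx2 side it had 0.108 and 0.111 in P2, against 0.112 and 0.106 in A2. Here the log2 ratio of the Mtx2 side over the Lnp side was taken without adding 0.02, so it is not on the scale of lean. It was −0.25 and −0.29 in P2, against −0.01 and 0.04 in A2. For the region from Hoxd9 to Hoxd1 this ratio was 2.15 and 1.95 in P2, against 1.92 and 1.80 in A2. In both regions the lines did not overlap, and the difference had the same sign within the first and within the second libraries.

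The separation of the locus at a bound was measured as the log2 ratio of pairs on one side of it over pairs across it at matched distances of 40 to 400 kb. At the bound between Hoxd10 and Hoxd9 it was 0.74 and 0.46 in P2, against 0.47 and 0.43 in A2. The difference of 0.15 came from the first libraries (0.27) more than from the second (0.03), and an exact permutation test gave p = 0.667, with 0.333 as the smallest possible. When the bound was moved along the fragments from 20 kb before Evx2 to Hoxd1, the separation was highest between the Hoxd12 fragments mHoxD_73 and mHoxD_74 in the first P2 library, at 0.79, and at the start of mHoxD_69, between Evx2 and Hoxd13, in the second P2 library, at 0.54. In A2 it was highest at the start of the Evx2 fragment in the first library, at 0.60, and at the start of mHoxD_69 in the second, at 0.61. In the second P2 library every bound in the desert of islands III to V and in the GCR region gave a higher value than any in the cluster. The highest was 0.68, within island III. In every library bounds in the Mtx2 interval and the desert beyond it gave negative values, down to −0.87 in the second P2 library.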

How the data were processed

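5C libraries of P2 (2) and A2 (2) were compared. The authors processed Ion Torrent reads with a 5C pipeline on Galaxy and deposited symmetric tables of signal, in which the reads of each fragment pair were divided by all reads of the run and multiplied by 1000. No correction for primers or fragments is stated, and dividing by a total makes the pairs of a library depend on one another. Fragment coordinates are those of the headers (mm9 per the labels), and the aligner and tool versions behind the deposited signal are not given in the sources used here. The methods subtract A2 from P2 without a test, so limma was used.

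Pairs of the same primer kind, which have no value, and pairs under 10 kb were left out. Frequencies were averaged over 24-kb bins, anchors, 8 regions and 16 landmark windows, taken as log2(value + 0.02) and fitted with limma 3.58.1 in R 4.3.3 (lmFit and eBayes, 2 lines, no covariate, Benjamini-Hochberg over all features of a family). Fragment pairs and bin pairs needed a mean frequency of 0.02, and landmark pairs 3 fragment pairs. Fold changes on this scale understate those of low pairs. Slope and separation were compared by exact two-sided permutation tests (Python 3.11.15, numpy 2.4.6, pandas 2.3.3). The code was tested on simulated data.

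The members, regions, landmarks and lists were chosen with earlier results of these data known. The windows of the islands, the GCR, Prox and the Hoxd13 probe were placed from the study's description, so their edges are approximate. Named items were those past the threshold (up to 5 per direction), otherwise the 3 largest differences without overlap, with the landmarks and the strongest fragment pairs at Hoxd13. Region pairs of 5′ Hoxd, the landmark pairs of island II with Hoxd13, of the GCR with Hoxd1 and of Hoxd9 with Mtx2, the fragment pairs behind a landmark pair, lean and the flank ratios were chosen after their values were seen. Alternatives covered scaling, pseudocount, distance and frequency minimums, bin size, window position, a replicate block and leaving out each library. Primer classes, read depth and pairs at 0 were checked in every library, and the depth, between 478818 and 2096682 reads, sets counting error only.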

Additional observations from a re-analysis of the deposited data

How the results depend on the processing

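Fragment pairs, bin pairs, anchors, side preference, regions and landmarks were recomputed under each alternative, and 129 of the 150 values of the comparisons were classed as unchanged. For a family this meant an equal number of calls, whatever their direction. For the contacts of Hoxd13, the GCR and island III it meant the same direction and side of the threshold. For slope and separation it meant the same direction alone. limma called 1 pair of 48-kb bins, lower in P2 (hoxd_65, hoxd_70 and hoxd_72 with the last bin of the locus, log2 −1.26), and 1 pair of 24-kb bins moved by 12 kb, higher in P2 (hoxd_43 with the bin of mHoxD_93, log2 2.26). It called 1 anchor, the Hoxd9 fragment, with a pseudocount of 0.1, with pairs under 10 kb included and with a replicate block. Among region pairs it called 0 with equal totals or equal medians over pairs from 10 kb, with pairs under 10 kb included, with a minimum of 20 kb, which removes both fragment pairs of the call, with the highest 1% of pairs left out and with fragments scaled to the same total. With a replicate block and scaled fragments together it called 15 (11 higher, 4 lower); this and the equal medians were added after the data were seen. The separation difference was −0.023 at a bound beyond Hoxd1. The cause was not tested for any of these.

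Leaving out each library gave 0 to 17 fragment pairs, 0 to 10 bin pairs, 0 to 1 anchors in side preference, 0 to 3 region pairs and 0 to 2 landmark pairs, with the most without the first A2 library for pairs and bins and without the first P2 library for the others, and 0 anchors throughout. The line left with 1 library is then assumed to vary like the other. The log2 change of the Hoxd13 window with island III ran between −0.017 and 0.42, with the GCR between 0.08 and 0.34, and the slope and separation differences between −0.05 and −0.000535 and between 0.00579 and 0.29. For 5′ Hoxd it ran between −0.00299 and 0.046 with the desert beyond Mtx2 and between −0.082 and 0.00672 with the Mtx2 interval.

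The direction turned in other named items. With windows moved by 10 kb towards Mtx2 the log2 change was 0.12 for Evx2 with Hoxd4 and Hoxd3, −0.050 for Hoxd13 with the GCR, −0.12 for Hoxd9 with Mtx2 and 0.24 for Lnp with Hoxd8. With windows moved towards Lnp it was 0.23 for Evx2 with Hoxd4 and Hoxd3, −0.13 for the GCR with Hoxd1 and −0.027 for Hoxd9 with Mtx2. For 5′ Hoxd with the desert beyond Mtx2 it was −0.00973 with equal totals and −0.15 with scaled fragments, with or without a replicate block. The side preference of mHoxD_33 differed by −0.00287 with pairs under 10 kb included.

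The labels give the libraries no shared culture or run, so by the labels they share only a number. In the values same-numbered libraries were alike in other ways too. Pairs under 10 kb took 138 and 166 of 1000 reads in the first P2 and A2 libraries, against 261 and 278 in the second. Whether this reflects a batch was not tested. Same-numbered libraries deviated together by r = 0.420 over anchors and 0.0772 over fragment pairs, and with 2 per line this is no evidence of pairing. A count model on recovered reads was planned and not run. The second A2 library had 23.4% of pairs at 0, against 1.97% in the first P2 library, which was sequenced less deeply, and the cause was not tested. The 2 libraries per line limit every test.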
